A study of Mus musculus with 7 samples.

Results

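The genes described here encode the eukaryotic translation initiation factors (eIFs) and the proteins that bind eIF4E, read in regulatory T cells (Tregs) of mouse skin and of skin-draining lymph nodes (SDLN). They were taken by name, as every row of the count table whose symbol begins with Eif and a digit from 1 to 6, without the eIF2 kinases (Eif2ak genes) and without Eif2s3x and Eif2s3y, the sex-linked genes of an eIF2 subunit. This gave 49 genes of 24084 in the table, all of them protein-coding in the GENCODE annotation. The low-count filter left 46 of them, among 11376 genes tested in all; Eif3j1, Eif3j2 and Eif4e1b had no count in any library. Tregs are the CD4 T cells defined by the transcription factor Foxp3, and both tissues came from mice aged 6 weeks of the strain labelled Foxp3-DTR, described for the series as Foxp3-DTR/GFP, in which the Foxp3 gene drives the diphtheria toxin receptor and a green fluorescent protein; no toxin treatment is named. There were 3 SDLN libraries and 4 libraries from telogen skin, that is, skin whose hair follicles are at rest. The sort gates, the number of animals in a library and whether libraries came from separate animals are not given, so the p-values measure only the spread between these libraries. SDLN 3 was the sole library of a male, going by Y-linked transcripts. For skin 1, the title and source give skin but the tissue tag gives the lymph node, so values without skin 1 stand beside the called genes.

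Initiation brings a ribosome to the start codon. eIF2 delivers the initiator tRNA and is recharged by the exchange factor eIF2B, and the many-subunit scaffold eIF3, with eIF1, eIF1A and eIF5, assembles on the small ribosomal subunit. The messenger RNA is brought in by eIF4F, made of the cap-binding protein eIF4E, the scaffold eIF4G and the helicase eIF4A, and eIF5B joins the large subunit. Control acts mainly at the phosphorylation of eIF2, which lowers initiation in general while favouring a few messages such as Atf4, and at the eIF4E-binding proteins, which the kinase mTORC1 releases from eIF4E. T cell activation raises translation, in part through mTORC1.

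Many messages for ribosomal proteins and translation factors start with an unbroken run of C and T, through which mTORC1 and the protein Larp1 control their translation. The bases around the annotated start are therefore shown for eIF3 genes whose skin values were low, for Eif3f, the subunit with the highest fold change, and for 2 genes outside the complex with higher skin values (for Eif4g3, the more upstream of its starts); Eif4e3 and Eif3e are not shown. Each window is 45 bases from RefSeq (GRCm38.p6, gene strand, 5′ to 3′), 30 before the start and 15 from it, with runs of at least 8 C or T in capitals.
Eif3d: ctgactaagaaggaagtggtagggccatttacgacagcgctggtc
Eif3l: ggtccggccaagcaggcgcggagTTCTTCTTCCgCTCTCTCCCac
Eif3m: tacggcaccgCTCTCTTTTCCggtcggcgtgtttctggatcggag
Eif3c: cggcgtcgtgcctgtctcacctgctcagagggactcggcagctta
Eif3f: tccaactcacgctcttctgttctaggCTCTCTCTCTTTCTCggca
Eif4g3: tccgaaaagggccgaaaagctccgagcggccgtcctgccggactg
Eif5: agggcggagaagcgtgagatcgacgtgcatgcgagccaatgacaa
Such a run was present in 3 of these 7 windows, in Eif3l and Eif3m, which had low skin values, and in Eif3f, which had high values in 3 of the skin libraries. The run of Eif3m lies wholly before the annotated start, whereas a run crosses the start in Eif3l and Eif3f. Eif3a, Eif3b, Eif3g and Eif3k, which also have an entry but are not shown, held no run. Of the 37 initiation factor genes with an entry, 7 (18.9%) held a run in any of their windows. By window, 9 of their 49 held a run, against 18.7% of all 32851 windows. Runs of at least 8 A or G, the same motif on the other strand, were in 7 of the 37 genes and 19.6% of all windows. Genes with several starts count once in a share by gene, so it is not directly comparable with a share by window. A match describes letters only, and the level of a message does not report how much of it is translated. The genes lie at chromosome 15, 77958998 to 77970813 (Eif3d), chromosome 15, 79075179 to 79094405 (Eif3l), chromosome 2, 104999656 to 105017080 (Eif3m), chromosome 7, 126546455 to 126566411 (Eif3c), chromosome 7, 108934417 to 108942951 (Eif3f), chromosome 4, 137993022 to 138208508 (Eif4g3) and chromosome 12, 111538016 to 111546752 (Eif5), in the mm10 build.

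Gene counts per library were 11009609 to 14785751, and a count of 3 stood for 0.204 to 0.276 CPM, counts scaled to a common library size. Genes with a count numbered 13408 to 13845 in SDLN and 9690 to 12639 in skin. Across genes, log2 CPM correlated at 0.97 to 0.99 between SDLN libraries and 0.65 to 0.75 between skin libraries. Between an SDLN and a skin library the correlation was also 0.65 to 0.75, so skin libraries were no more alike than they were like SDLN. Skin 1, whose tissue tag gives the lymph node, is counted with skin here, so it correlated with no SDLN library above 0.75. Summed Treg markers stood at 8298 to 9979 CPM in SDLN and 7899 to 12539 CPM in skin, with 2 of 8, Ctla4 and Ikzf2, higher in skin and none lower by the test. For these 2, skin 1 stood at 3814 and 3798 CPM, and the SDLN libraries at 566 to 802 and 1199 to 1464 CPM. The T cell genes Cd3d, Cd3e, Cd3g and Cd4 in this list had log2 fold changes of -0.90, -1.07, -0.73 and -0.66 without passing it (edgeR adjusted p = 0.118 to 0.26). Every skin library was below every SDLN library for Cd3d, Cd3e and Cd4, and the part of these values in the lower eIF3 values was not tested. Foxp3 went the other way, with a log2 fold change of 0.93 and every skin library above every SDLN library. Il2ra had a log2 fold change of -0.28 and overlapping tissues. Neither passed the test (edgeR adjusted p = 0.242 for Foxp3 and 0.585 for Il2ra). Macrophage and dendritic cell markers summed to 448 to 696 CPM in SDLN and 906 to 10611 CPM in skin, lowest in skin 3 and highest in skin 4; 4 of the 9 tested of 12 listed were higher in skin, Cd207 was at 0 in every library and Itgax at 0 in every SDLN library. In skin 3, fibroblast markers summed to 2000 CPM and keratinocyte markers to 784 CPM. Every other library had at most 8.84 and 20.7 CPM. The sole keratinocyte marker tested, Krt10, went the other way and was lower in skin (log2 fold change -6.36, edgeR adjusted p = 0.038). It had 2.42 to 2.65 CPM in SDLN and at most 0.0881 CPM in skin, and Krt1 was at 0 in every library. B cell markers summed to 78.6 to 102 CPM in SDLN and 2.99 to 38.4 CPM in skin, with Pax5 at 0 in all skin libraries. Every result below comes from these mixtures, and the part of other cells in them was not tested. In such bulk libraries, fewer cells of a type and less RNA per cell cannot be told apart.

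Of the 46 genes tested, Eif4e3 was higher in skin and Eif3d lower, by edgeR's quasi-likelihood test at a Benjamini-Hochberg adjusted p under 0.05 over all genes tested. This is 4.35% of the initiation factor genes, whereas 824 of the 11376 genes tested passed (7.24%; 3.28% higher and 3.96% lower in skin), so the share was not above the background. At an unadjusted p under 0.05 there were 8 genes, against 18.6% of all genes tested. The libraries of the 2 tissues did not overlap for 13 initiation factor genes (28.3%; background 26.6%). Skin stood above SDLN in 4 of these, Eif4e3, Eif1, Eif4g3 and Eif5 (background 10.1%), and below it in 9, Eif3d, Eif3m, Eif3e, Eif3l, Eif3c, Eif4e, Eif2s1, Eif2b3 and Eif1b (background 16.5%). The median log2 fold change, skin over SDLN, was -0.37 over the 46 genes, 29 of which lay below 0. It was 0.05 over all genes tested and 0.01 over the 2534 genes with mean levels between the quartiles of these 46, 72.9 to 245 CPM. Fitted with limma-voom, the 46 genes had a median of -0.56 and all genes tested one of -0.62, so there the group did not lie below the rest; the genes of like level had -0.15. The same held with tissue weights in limma-voom (-0.57 against -0.62) and with the replicate number as a block (-0.42 against -0.55 on 6 libraries and -0.40 against -0.54 on all 7).

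**Figure D1:**
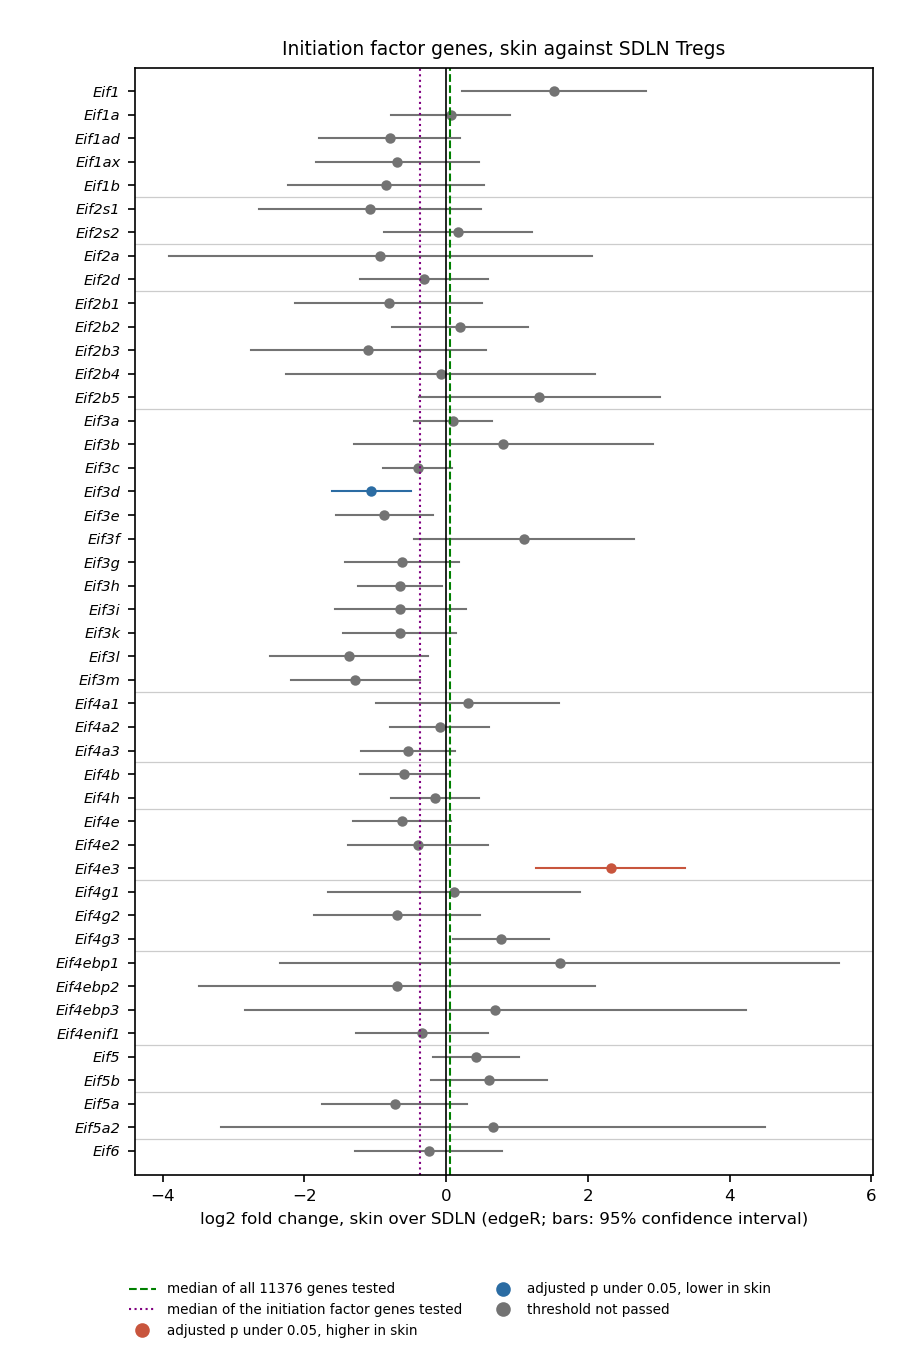
Log2 fold change, skin over SDLN, for the 46 initiation factor genes tested (points, edgeR fit; bars, 95% confidence interval), ordered by factor with grey lines between factors; the dashed line is the median of all genes tested and the dotted line that of the 46 genes. Eif4e3 (2.32) and Eif3d (-1.05) are the coloured points, and 29 of the 46 points lie left of 0.

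All initiation factor genes together took 1.03% to 1.11% of the gene counts of the SDLN libraries and 0.708% to 0.859% of those of the skin libraries, so the tissues did not overlap in this share. Eif4g2 had the most counts of the genes, from 8.72% of them in skin 4 to 27.0% in skin 1. Without it, the others summed to 7746 to 9315 CPM in SDLN and 6425 to 6934 CPM in skin. The spread between libraries was larger in skin: the median coefficient of variation of the 46 genes was 14.7% in SDLN and 44.0% in skin, against 14.5% and 46.9% for the genes of like level. Per kilobase of exon, the highest SDLN level was that of Eif3h, at 309 ± 87.5 CPM per kilobase (SD, n = 3), and in skin it was Eif3h as well, at 197 ± 23.9 (SD, n = 4). Of the 50-base stretches of Eif3h, 20.3% also occur in transcripts of other genes, so its level is uncertain. The lowest levels per kilobase were those of 2 eIF4E-binding proteins, at 0.75 ± 0.369 CPM per kilobase in SDLN for Eif4ebp1 and 1.02 ± 0.908 in skin for Eif4ebp2.

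**Figure D2:**
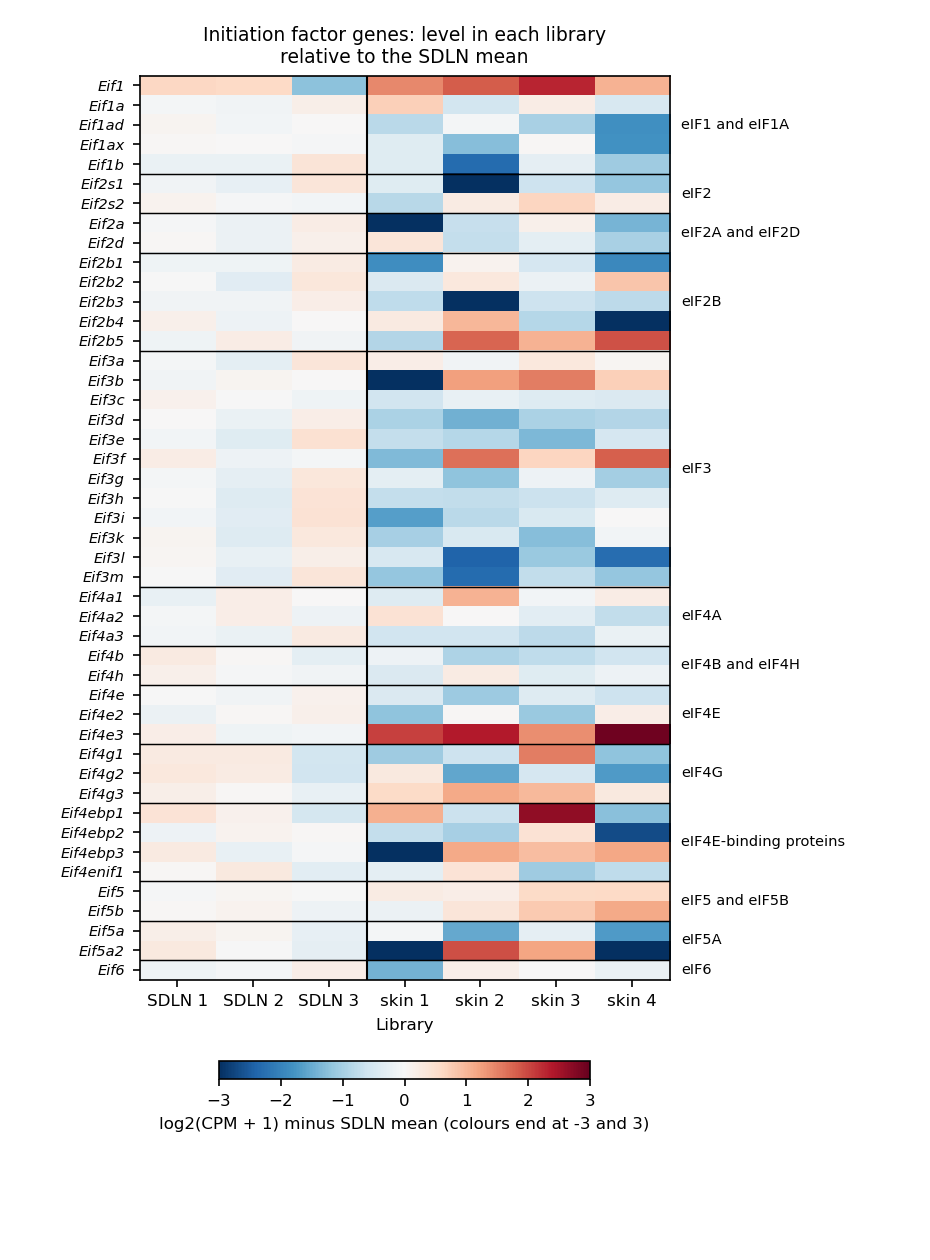
Log2(CPM + 1) of each initiation factor gene in each of the 7 libraries minus its SDLN mean, blue below and red above that mean, with colours ending at -3 and 3; rows are grouped by factor. The SDLN columns are pale throughout except for Eif1 in SDLN 3, whereas the skin columns differ from each other, with the darkest blue cells mostly in different genes in skin 1, 2 and 4.

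The scaffold complex eIF3 had lower mean values in skin in most subunits, nearly all short of the test. Of its 12 genes tested, 1 passed the test, lower in skin (8.33%; background 3.96%), 9 had a log2 fold change below 0 (5486 of the 11376 genes tested did), and 5 did not overlap between the tissues, all 5 with skin below SDLN (41.7%; background 16.5%). The median log2 fold change of the 12 genes was -0.65, against 0.05 over all genes tested. Over the 21 alternative analyses it ran from -0.83 to -0.45, with 9 or 10 of the genes below 0 in each. With limma-voom, however, it was -0.68 against -0.62 over all genes tested, and with tissue weights -0.69 against -0.62. In those 2 fits eIF3 thus lay little below the rest, though the genes of like level had -0.15 in both. Summed over the subunits, eIF3 had 4334, 3583 and 5264 CPM in the 3 SDLN libraries, against 2743, 2716, 3025 and 3262 CPM in skin 1 to 4. Every skin library lay below every SDLN library, and the SDLN libraries differed more among themselves than the skin libraries did.

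Eif3d encodes a subunit at the edge of the complex that can itself bind the cap of selected messages. It stood at 379, 326 and 433 CPM in SDLN 1 to 3 and at 193, 139, 195 and 203 CPM in skin 1 to 4. All 4 skin libraries were below all 3 SDLN libraries, with skin 2 the lowest. SDLN averaged 379 ± 53.5 CPM (SD, n = 3) and skin 183 ± 29.4 CPM (SD, n = 4), 2.08-fold lower (log2 fold change -1.05, standard error 0.24, edgeR adjusted p = 0.039). The adjusted p was 0.0383 without skin 1 and 0.0419 without skin 3 and 4, but 0.0523 without skin 4 and 0.176 to 0.186 with each SDLN library left out in turn, and Eif3d passed in 10 of 21 alternatives. In the GENCODE annotation, 43.3% of its exon bases overlap the antisense gene Gm17638, which is not a row of the table; the strand setting of the counting is not given, so reads of the 2 genes cannot be told apart.

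Among the subunits of the octamer that forms the body of eIF3, Eif3l had the lowest fold change of all 46 genes. It stood at 625, 512 and 683 CPM in SDLN 1 to 3 and at 429, 113, 276 and 122 CPM in skin 1 to 4, with skin 1 the nearest to SDLN (log2 fold change -1.37, standard error 0.48, adjusted p = 0.164). Without skin 1, the library with the lymph node tag, the log2 fold change was -1.83 and Eif3l passed (adjusted p = 0.0345). Eif3m had 234, 186 and 308 CPM in SDLN and 105, 47.1, 141 and 106 CPM in skin (log2 fold change -1.28, standard error 0.40, adjusted p = 0.113), and Eif3e had 438, 359 and 637 CPM against 284, 258, 181 and 325 CPM (log2 fold change -0.87, standard error 0.30, adjusted p = 0.155). In neither did the tissues overlap, and neither passed the test; Eif3m passed with DESeq2 alone among the alternatives (adjusted p = 0.0265). Eif3c, which holds the octamer together with Eif3a, differed less, at 521, 473 and 433 CPM in SDLN and 316, 409, 361 and 353 CPM in skin (log2 fold change -0.40, standard error 0.21, adjusted p = 0.379). Eif3h had 479, 368 and 648 CPM against 293, 292, 312 and 374 CPM (log2 fold change -0.65, adjusted p = 0.22), with skin 4 just above SDLN 2. Eif3k had a log2 fold change of -0.66 (adjusted p = 0.386) and overlapping tissues.

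The subunits were not uniformly lower. Eif3a, the largest subunit, had 473, 405 and 634 CPM in SDLN and 572, 461, 612 and 518 CPM in skin, with all skin values inside the SDLN range (log2 fold change 0.10, 95% confidence interval -0.45 to 0.65). Eif3f had 76.5, 57.9 and 61.9 CPM in SDLN and 25.3, 206, 101 and 227 CPM in skin, below SDLN in skin 1 and above it in skin 2 to 4 (log2 fold change 1.10, standard error 0.67, adjusted p = 0.476). Eif3b, the scaffold of the module that also holds Eif3g and Eif3i, was also below SDLN in skin 1 alone, with 57.4, 64.9 and 62.3 CPM in SDLN and 4.69, 145, 180 and 101 CPM in skin (log2 fold change 0.80, standard error 0.91, adjusted p = 0.752). Eif3g and Eif3i had log2 fold changes of -0.62 and -0.65, neither past the test (adjusted p = 0.421 and 0.48).

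**Figure D3:**
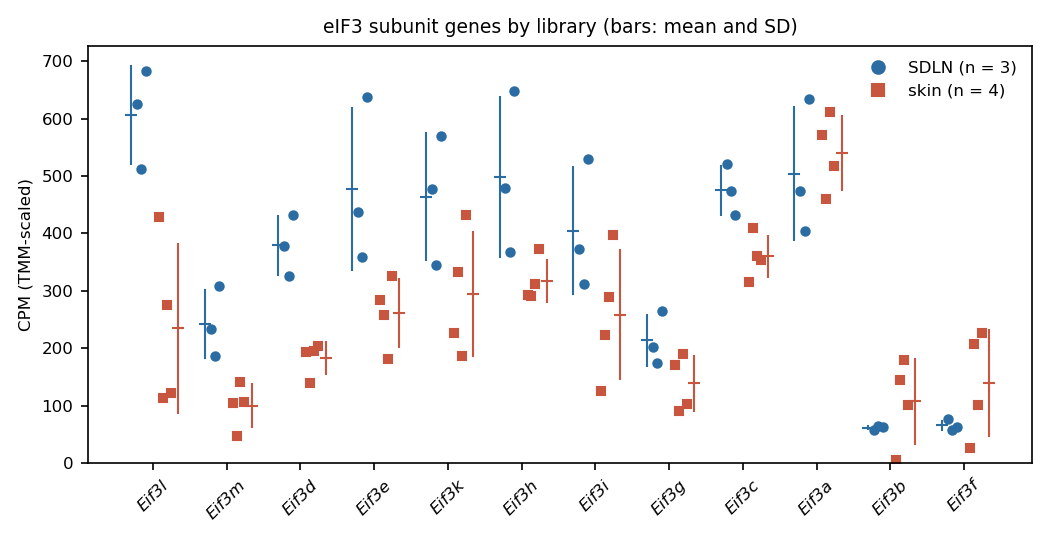
CPM of the 12 eIF3 subunit genes tested in each SDLN library (circles, n = 3) and skin library (squares, n = 4), with bars for mean and SD. The squares lie below the circles with no overlap in Eif3l, Eif3m, Eif3d, Eif3e and Eif3c, lie among them in Eif3a, and spread widely in Eif3b and Eif3f, where skin 1 is the lowest point at 4.69 and 25.3 CPM.

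Of the 34 genes tested outside eIF3, 1 passed, Eif4e3, an unusual member of the cap-binding eIF4E family. It lies on chromosome 6, 99625135 to 99666771. It stood at 28.6, 22.6 and 23.3 CPM in SDLN 1 to 3 and at 105, 133, 66.5 and 192 CPM in skin 1 to 4. All 4 skin libraries were above all 3 SDLN libraries, with skin 3 the lowest and skin 4 the highest of skin. SDLN averaged 24.8 ± 3.24 CPM (SD, n = 3) and skin 124 ± 53.0 CPM (SD, n = 4), 4.99-fold higher (log2 fold change 2.32, standard error 0.46, adjusted p = 0.038). The summed macrophage and dendritic cell markers, at 3344, 2900, 906 and 10611 CPM in skin 1 to 4, were also lowest in skin 3 and highest in skin 4; their part in the result was not tested. The log2 fold change was 2.26 without skin 3 and 4 (adjusted p = 0.0198), but the markers in skin 1 and 2 were still above the 448 to 696 CPM of SDLN. It was 2.40 without skin 1 (adjusted p = 0.0317), whereas the adjusted p was 0.165 to 0.176 with each SDLN library left out in turn and 0.0587 with limma-voom. A locus annotated as Gm20696, which is not a row of the table, overlaps 14.8% of the exon bases of Eif4e3. Of the 50-base stretches of Eif4e3, 12.4% also occur in transcripts of other genes, so its level is uncertain.

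The other eIF4E genes did not rise. Eif4e, the main cap-binding protein, had 133, 125 and 148 CPM in SDLN and 99.9, 63.0, 103 and 86.9 CPM in skin, without overlap (log2 fold change -0.62, standard error 0.30, adjusted p = 0.34). Eif4e2, a family member tied to repression of messages, had 123, 143 and 156 CPM against 60.2, 142, 64.0 and 160 CPM (log2 fold change -0.40, adjusted p = 0.733), with skin 2 and 4 inside or above the SDLN range and skin 1 and 3 below it. Within the family, the share of Eif4e3 in the CPM was 10.03%, 7.81% and 7.12% in SDLN 1 to 3, against 39.6%, 39.3%, 28.5% and 43.7% in the 4 skin libraries, and no skin share came near an SDLN share. Per kilobase of exon, Eif4e3 made up 19.4 ± 3.01% (SD, n = 3) of the family in SDLN and 61.5 ± 7.50% (SD, n = 4) in skin. These shares rest on the same counts as the test of Eif4e3 and are given as a description.

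The scaffold eIF4G is encoded by Eif4g1, Eif4g3 and the divergent Eif4g2, which lacks the eIF4E-binding site. Eif4g3 had 136, 124 and 104 CPM in SDLN and 181, 263, 236 and 148 CPM in skin, higher in every skin library (log2 fold change 0.77, standard error 0.30, adjusted p = 0.203). Eif4g2 had 2496, 2344 and 1346 CPM in SDLN and 2437, 670, 1401 and 613 CPM in skin (log2 fold change -0.69, standard error 0.51, adjusted p = 0.575). The low SDLN library was SDLN 3, and skin 1 and 3 lay inside the SDLN range. Eif4g1 had 70.0, 69.7 and 39.2 CPM against 26.8, 37.1, 170 and 24.2 CPM, high in skin 3 alone, the library with fibroblast and keratinocyte transcripts; their part in it was not tested. Per kilobase, Eif4g2 made up 91.2 ± 1.05% of the family in SDLN and 78.9 ± 9.64% in skin, and its share was 92.3% in skin 1.

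**Figure D4:**
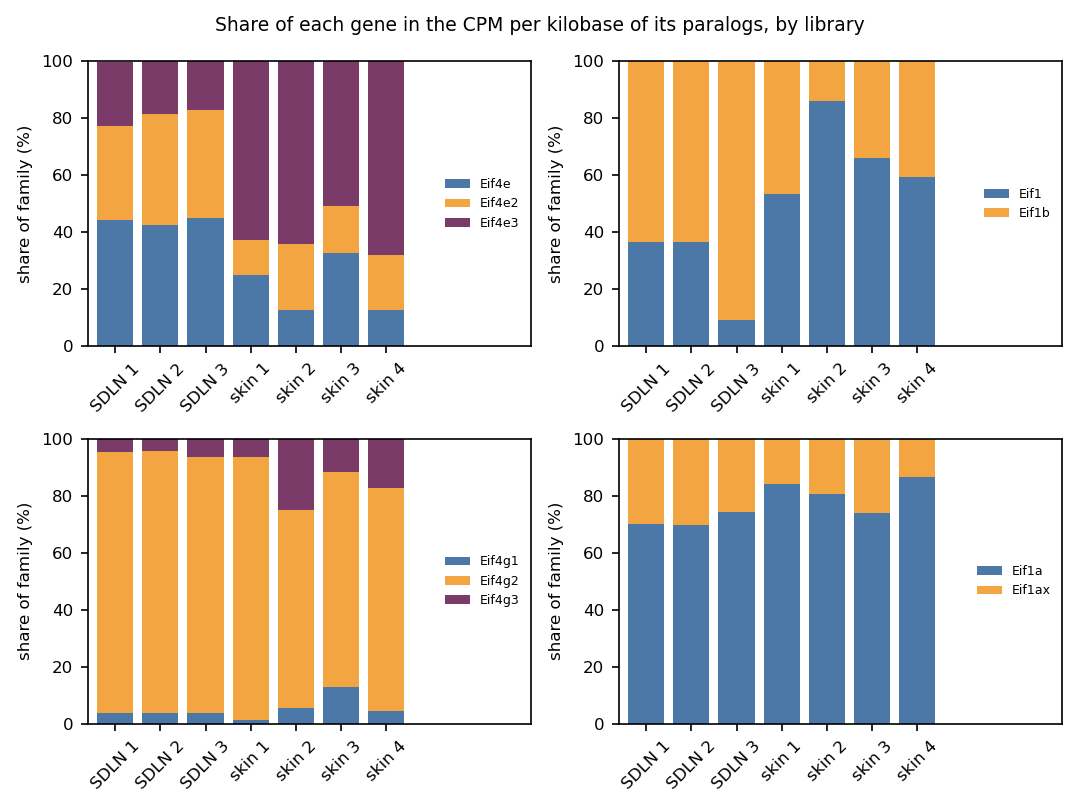
Share of each gene in the summed CPM per kilobase of its paralogs, in percent, for the eIF4E genes, Eif1 and Eif1b, the eIF4G genes, and Eif1a and Eif1ax, with a stacked bar per library. Eif4e3 fills 16.9% to 22.7% of the eIF4E bars in SDLN and 50.7% to 68.1% in skin, and Eif1 fills more of its bar in every skin library than in any SDLN library.

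The helicase eIF4A was read almost wholly from Eif4a2. It had 525, 624 and 491 CPM in SDLN and 737, 552, 437 and 326 CPM in skin (log2 fold change -0.09, 95% confidence interval -0.79 to 0.61), and skin lay both above and below SDLN. Of the 50-base stretches of Eif4a2, 13.6% also occur in transcripts of other genes, and 13.3% of its exon bases overlap other genes, so its level is uncertain. Eif4a1, its near copy, made up 7.0 ± 0.75% of Eif4a1 and Eif4a2 per kilobase in SDLN and 9.5 ± 4.4% in skin; 28.4% of the 50-base stretches of its transcripts also occur in transcripts of other genes, and reads with several alignments were not assigned to genes, so its level is uncertain. Eif4a3, the eIF4A relative of the exon junction complex, had a log2 fold change of -0.54 (adjusted p = 0.395). Of the cofactors that stimulate eIF4A, Eif4b had 532, 453 and 364 CPM in SDLN and 399, 235, 262 and 296 CPM in skin (log2 fold change -0.59, standard error 0.27, adjusted p = 0.294), with skin 1 inside the SDLN range and the rest below it. Eif4h had a log2 fold change of -0.15 (95% confidence interval -0.78 to 0.47).

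The eIF4E-binding proteins, which compete with eIF4G for eIF4E, were uneven across the skin libraries. None of the 4 genes passed, and none had tissues without overlap. Eif4ebp1 had 2.37, 1.8 and 0.772 CPM in SDLN and 4.33, 0.647, 15.1 and 0.0713 CPM in skin, highest in skin 3 and with 1 count in skin 4. Eif4ebp2 had 8.41, 10.4 and 9.81 CPM against 5.43, 4.29, 13.1 and 0.642 CPM. Eif4ebp3 had 17.5, 12.2 and 14.2 CPM against 0, 33.1, 28.4 and 33.3 CPM, above SDLN in 3 skin libraries and without a count in skin 1; 67.3% of its exon bases overlap the locus AC115631.1, so its level is uncertain. The confidence intervals of their log2 fold changes were wide, from -2.34 to 5.55 for Eif4ebp1, from -3.49 to 2.1 for Eif4ebp2 and from -2.83 to 4.23 for Eif4ebp3, so differences of either sign and several-fold size could not be told from none. Eif4enif1, the eIF4E transporter that carries eIF4E to the nucleus and to processing bodies, had 162, 193 and 127 CPM against 129, 210, 74.7 and 92.4 CPM (log2 fold change -0.34, adjusted p = 0.762).

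Of the factors that select the start codon, Eif1 was higher in every skin library than in any SDLN library, without passing the test. It had 55.2, 54.7 and 14.6 CPM in SDLN and 98.2, 128, 176 and 74.7 CPM in skin (log2 fold change 1.52, standard error 0.56, adjusted p = 0.186). Its near copy Eif1b had 51.2, 51.0 and 77.4 CPM in SDLN and 45.7, 11, 48.7 and 27.5 CPM in skin, lower in every skin library (log2 fold change -0.85, standard error 0.60, adjusted p = 0.552). SDLN 3 held the lowest Eif1 and the highest Eif1b of the SDLN libraries. Per kilobase, Eif1 made up 36.6%, 36.5% and 9.19% of the pair in the 3 SDLN libraries, against 53.5%, 86.2%, 65.95% and 59.3% in skin 1 to 4. Of the 50-base stretches of Eif1, 19.2% occur in transcripts of other genes, so its level is uncertain too.

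The eIF1A genes, whose product works beside eIF1, did not pass the test. Eif1a had 175, 171 and 207 CPM in SDLN and 301, 124, 214 and 131 CPM in skin (log2 fold change 0.07, 95% confidence interval -0.77 to 0.91), and the X-linked Eif1ax had 94.5, 93.8 and 89.9 CPM against 72.2, 37.9, 94.9 and 25.6 CPM (log2 fold change -0.69, adjusted p = 0.568). Eif1ax was nearly level over the SDLN libraries, and skin 2 and 4 lay far below them. Eif1ad, which carries an eIF1A-like domain, had a log2 fold change of -0.79 (adjusted p = 0.404). Eif5, the protein that makes eIF2 hydrolyse its GTP at the start codon, had 109, 117 and 112 CPM in SDLN and 134, 130, 169 and 172 CPM in skin, higher in every skin library by a small margin (log2 fold change 0.42, standard error 0.26, adjusted p = 0.484). Eif5b, which joins the ribosomal subunits, had 117, 122 and 102 CPM against 101, 146, 196 and 249 CPM (log2 fold change 0.61, standard error 0.35, adjusted p = 0.444), with skin 1 just below SDLN.

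Of eIF2, the carrier of the initiator tRNA, Eif2s1 encodes the alpha subunit on which the stress kinases act. It had 180, 163 and 251 CPM in SDLN and 151, 12.9, 126 and 86.4 CPM in skin, lower in every skin library and by far the lowest in skin 2 (log2 fold change -1.07, standard error 0.68, adjusted p = 0.492). Eif2s2, the beta subunit, had 61.1, 54.7 and 53.6 CPM against 31.5, 67.5, 88.7 and 66.4 CPM (log2 fold change 0.17, 95% confidence interval -0.87 to 1.21). Of the eIF2B subunits, Eif2b3 had 62.1, 61.6 and 76.8 CPM in SDLN and 38.9, 4.61, 43.2 and 38.4 CPM in skin (log2 fold change -1.09, standard error 0.72, adjusted p = 0.509). Eif2b5, the catalytic subunit, had 18.5, 24.2 and 19.1 CPM against 10.7, 71.1, 43.4 and 79.9 CPM (log2 fold change 1.32, standard error 0.74, adjusted p = 0.422). The eIF2B subunits did not move together in skin: Eif2b3 was low in every skin library, while Eif2b5 was below SDLN in skin 1 and above it in the others. Eif2b4 had 39.8 CPM or more in every library except skin 4, at 3.35 CPM. Eif2b1 had a log2 fold change of -0.81 (adjusted p = 0.552) and Eif2b2 one of 0.19 (adjusted p = 0.888).

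Eif2a and Eif2d encode alternative carriers of the initiator tRNA. Eif2a had 135, 123 and 161 CPM in SDLN and 0.092, 85.6, 155 and 52.6 CPM in skin, a single count in skin 1 (log2 fold change -0.93, standard error 1.29). Eif2d had 121, 103 and 130 CPM against 153, 71.3, 96.4 and 59.3 CPM (log2 fold change -0.31, adjusted p = 0.779). Eif5a, the hypusine-bearing factor that acts mainly in elongation, had 506, 478 and 379 CPM in SDLN and 431, 155, 375 and 137 CPM in skin, with skin 2 and 4 far below the rest (log2 fold change -0.73, standard error 0.44, adjusted p = 0.467). Its paralog Eif5a2 had 16.3, 13 and 10.8 CPM against 0.552, 52.9, 31.2 and 0.143 CPM, high in skin 2 and 3 and close to 0 in the other skin libraries. Eif6, which keeps the large subunit from joining early, had 72.8, 76.8 and 92.4 CPM against 29.5, 90.8, 81.5 and 70.3 CPM (log2 fold change -0.25, 95% confidence interval -1.28 to 0.79), with skin 1 far below the rest.

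Of the eIF2 kinases and the partners and response genes of eIF2 phosphorylation, 3 of the 12 tested rose in skin and none fell (25%; background 7.24%), with a median log2 fold change of 1.29 over the 12. The 3 genes were Ppp1r15a and Ppp1r15b, the subunits that direct a phosphatase to eIF2 alpha, and Atf4, the transcription factor whose message is translated when eIF2 is phosphorylated. Ppp1r15a (Gadd34; chromosome 7, 45522916 to 45526268) had 36.6, 37.8 and 21.3 CPM in SDLN and 864, 358, 476 and 266 CPM in skin, 15.4-fold higher (log2 fold change 3.94, standard error 0.51, adjusted p = 0.00981). Ppp1r15b (chromosome 1, 133131143 to 133139783) had 46, 46.7 and 46.8 CPM against 126, 177, 103 and 150 CPM (log2 fold change 1.58, standard error 0.33, adjusted p = 0.038). Atf4 (chromosome 15, 80255184 to 80257541) had 97.4, 91.6 and 109 CPM against 210, 226, 363 and 279 CPM (log2 fold change 1.44, standard error 0.29, adjusted p = 0.038). In all 3, every skin library was above every SDLN library. Without skin 1 all 3 passed (adjusted p = 0.0081 for Ppp1r15a, 0.0317 for Ppp1r15b and 0.0244 for Atf4). None of the 3 passed with any SDLN library left out (adjusted p = 0.0619 to 0.0668 for Ppp1r15a, 0.165 to 0.176 for Ppp1r15b and 0.165 to 0.176 for Atf4).

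The 4 eIF2 kinases did not pass the test. Eif2ak3 (PERK), the kinase of the endoplasmic reticulum, had 13.2, 12.6 and 9.58 CPM in SDLN and 24.3, 95.5, 20.2 and 154 CPM in skin, higher in every skin library (log2 fold change 2.64, standard error 0.85, edgeR adjusted p = 0.126). It passed in 2 of 21 alternatives, DESeq2 and tissue-weighted limma-voom. Eif2ak2 (PKR), the kinase that senses double-stranded RNA, had 71.4, 76.8 and 76.6 CPM against 20.4, 48.0, 45.5 and 36.4 CPM, lower in every skin library (log2 fold change -1.0, standard error 0.45, adjusted p = 0.291). Ddit3, a target of Atf4 better known as CHOP, had 33.3, 36.0 and 47.1 CPM against 45.4, 55.2, 15.2 and 45.3 CPM (log2 fold change 0.05, 95% confidence interval -1.28 to 1.38), so no difference was detectable there. Atf3, another stress-induced gene, had 2 counts over all SDLN libraries and 8.74, 1.46, 2.56 and 189 CPM in skin (edgeR adjusted p = 0.0765), highest in skin 4. It passed in 3 of 20 alternatives.

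Of the 15 genes of the mTORC1 and eIF4E kinase axis, none passed the test by edgeR, and 2 had an unadjusted p under 0.05 (background 18.6%). These 2 were Mknk2, a kinase that phosphorylates eIF4E, and Rheb, the activator of mTORC1. Mknk2 (chromosome 10, 80665327 to 80678112) had 117, 120 and 101 CPM in SDLN and 130, 245, 190 and 293 CPM in skin, higher in every skin library (log2 fold change 0.93, standard error 0.33, adjusted p = 0.169), and passed without skin 1 (adjusted p = 0.0391). Rheb had 11.4, 8.98 and 11.5 CPM against 37.3, 30.2, 40.9 and 19.5 CPM (log2 fold change 1.59, standard error 0.69, adjusted p = 0.266). Among the 21 alternatives, Rheb passed with DESeq2 alone (DESeq2 adjusted p = 0.00108).

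Of the 12 partners of eIF4F at the cap and the poly(A) tail, Ddx3x rose and Bzw2 fell in skin (16.7%; background 7.24%). Ddx3x, an X-linked helicase that helps scan structured leaders (chromosome X, 13280970 to 13294052), had 137, 145 and 109 CPM in SDLN and 294, 460, 388 and 413 CPM in skin (log2 fold change 1.58, standard error 0.26, adjusted p = 0.0187). The lowest value was in SDLN 3, the male library; without SDLN 3 the log2 fold change was 1.45 (adjusted p = 0.13). Bzw2, an eIF5 mimic that binds eIF2 and eIF3 (chromosome 12, 36091835 to 36158080), had 331, 270 and 365 CPM against 66.6, 22.5, 94.4 and 35.0 CPM, 5.89-fold lower (log2 fold change -2.56, standard error 0.49, adjusted p = 0.0354). Neither gene passed with any SDLN library left out (adjusted p = 0.115 to 0.143 for Ddx3x and 0.12 to 0.165 for Bzw2), and both passed without skin 1 (adjusted p = 0.0123 and 0.0327). Pdcd4, an inhibitor of eIF4A, had 223, 234 and 145 CPM against 124, 61.1, 144 and 83.0 CPM, without overlap by a narrow margin (log2 fold change -0.96, adjusted p = 0.209).

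**Figure D5:**
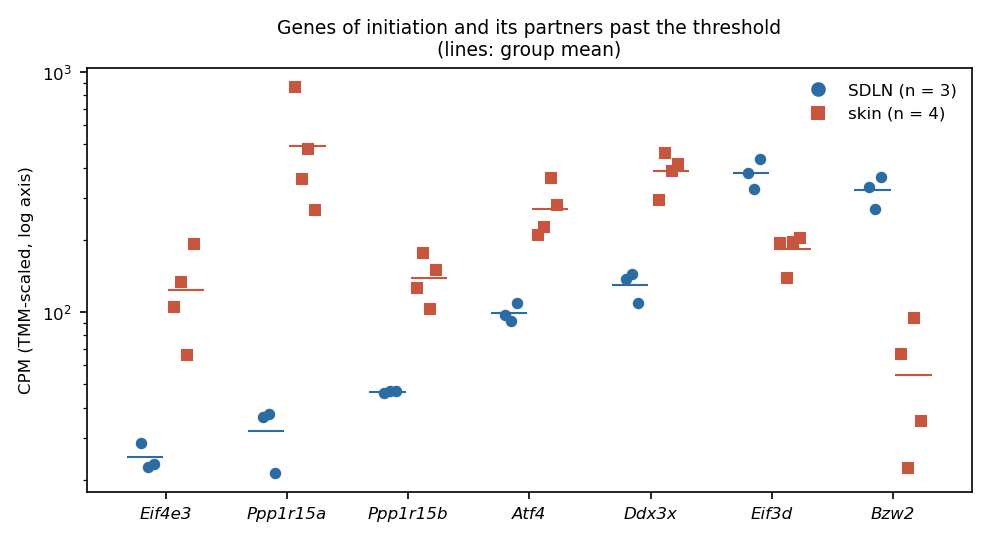
CPM on a log axis in each SDLN library (circles, n = 3) and skin library (squares, n = 4) for the initiation factor genes and the genes of the eIF2 and eIF4F lists that passed the test; lines are group means. Circles and squares do not overlap in any of the 7 genes, with skin above SDLN in Eif4e3, Ppp1r15a, Ppp1r15b, Atf4 and Ddx3x and below it in Eif3d and Bzw2.

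The later steps of translation were read for comparison. Of 10 elongation genes none passed by edgeR, 3 had an unadjusted p under 0.05 (background 18.6%), and 4 did not overlap between the tissues, all with skin below SDLN (background 16.5%). Eef2, the factor that translocates the ribosome, had 3795, 3551 and 2916 CPM in SDLN and 2319, 1849, 1775 and 1732 CPM in skin (log2 fold change -0.83, standard error 0.21), and did not pass (adjusted p = 0.05003); it passed in 5 of 21 alternatives, among them DESeq2 and limma-voom, with an adjusted p of 0.00118 to 0.358 over all of them. Eef1a1, which brings tRNAs to the ribosome, had 3022, 2276 and 3539 CPM against 1049, 1196, 1517 and 1863 CPM (log2 fold change -1.07, standard error 0.27, adjusted p = 0.0552), and Eef1b2, its exchange factor, had a log2 fold change of -1.24 (adjusted p = 0.0779). Eef1a1 passed in 4 and Eef1b2 in 3 of 21 alternatives. The median over the 10 genes was -0.63, close to that of eIF3. Of 8 termination and recycling genes, none passed and none had an unadjusted p under 0.05 by edgeR; the recycling factor Abce1 had 379, 368 and 242 CPM against 273, 29.0, 136 and 45.1 CPM (log2 fold change -1.45, standard error 0.71, adjusted p = 0.347).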

How the data were processed

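Messenger RNA was sequenced from sorted Tregs in 7 libraries, with cDNA made by the SMARTer Ultra Low Input kit per the labels' protocols. The authors deposited raw read counts per gene symbol. The submitters' processing notes name the build mm10 and, among other tools, TopHat2 2.0.12 and HTSeq 0.6.1; which annotation and strand setting were used for counting is not given in the sources used here. The table held 24084 genes and 5 summary lines, the latter left out of library sizes and tests; alignments to several places made up 61.2% to 70.4% of all its counts and reads outside genes 10.0% to 17.1%. Reads with several alignments were not assigned to genes, which lowers genes with near copies. Of the initiation factor genes tested, 12 shared at least 10% of their 50-base stretches with other genes. Among them were Eif3h (20.3%), Eif3m (18.4%), Eif4a3 (16.5%) and Eif4e3 (12.4%). In 7 of the genes tested, at least 10% of the exon bases overlap another gene, Eif5b (16.8%) and Eif1b (12.7%) among them.

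Genes were filtered with filterByExpr (minimum count 10), scaled by TMM and tested with the robust quasi-likelihood fit of edgeR 4.0.16 in R 4.3.3, two-sided, tissue as the sole term, with Benjamini-Hochberg adjustment over 11376 genes. CPM use TMM-scaled library sizes, SEs derive from the F statistic, and SDs are over libraries. Counting floors cover counting error only; confidence intervals carry the spread between libraries. Exon lengths, positions, overlaps and shared 50-base stretches come from GENCODE M21 of the same build, in which all 49 genes matched by symbol.

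Genes named by rule were those past the threshold, those without overlap, the most abundant of each factor, paralogs, the extremes of each complex and the leading genes of the other 5 lists; the rest were named after their values were seen. The genes, lists and rules were chosen with earlier results of these data known. Alternatives were DESeq2 1.42.0, limma-voom (limma 3.58.1) with and without tissue weights, scaling by RLE, by upper quartiles or not at all, testing without a filter or above 5 CPM on average, no robust fitting, a replicate block, sex as a covariate, a threshold of 0.01, each library left out, and, chosen after seeing the data, skin 3 and 4 left out together.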

Additional observations from a re-analysis of the deposited data

Results flagged for a closer look

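Among 62 genes examined in the 4 skin libraries, the 46 initiation factor genes tested and 16 genes of the other lists, 5 had a library far from the other skin libraries by the ratio of the gap to the whole range, where chance marks about 1 group in 20. Eif2b3 was at 4.61 CPM in skin 2, with the others between 38.4 and 43.2 CPM. Eif3d was at 139 CPM in skin 2, with the others between 193 and 203 CPM. Eif4ebp3 had no count in skin 1 (0 CPM), with the others between 28.4 and 33.3 CPM. Eif4g1 was at 170 CPM in skin 3, with the others between 24.2 and 37.1 CPM. Atf3 was at 189 CPM in skin 4, with the others between 1.46 and 8.74 CPM.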

How the results depend on the processing

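Of the 62 genes followed through the 21 alternatives, 7 passed the test. None of these 7 overlapped between the tissues, so leaving out a library or changing the threshold could hardly reverse one. Their direction was the same in every alternative. Over all of them, Eif4e3 had a log2 fold change of 1.96 to 2.53 (adjusted p = 2.56e-06 to 0.328; passed in 12) and Eif3d one of -1.19 to -0.95 (7.74e-05 to 0.293; passed in 10). The genes higher and lower in skin over the whole table were 373 and 451. They were 188 and 70 with no low-count filter, 1071 and 746 with DESeq2, 594 and 987 with tissue-weighted limma-voom, 62 and 16 with sex as a covariate, 72 and 16 at the 0.01 threshold and 669 and 1763 without skin 3 and 4; those lower were 99 at a mean of at least 5 CPM and 729 with limma-voom. Leaving out each library in turn gave 33 to 582 higher and 9 to 822 lower. With SDLN 3 the sole male library, sex as a covariate comes close to leaving that library out, which gave 61 and 15. These 2 alternatives are therefore not separate, and sex cannot be told apart from that library. Of the initiation factor genes, 0 were higher with no filter, with limma-voom, with sex as a covariate and at 0.01, and 0 lower with no filter, at a mean of at least 5 CPM, with sex as a covariate and at 0.01. DESeq2 gave 2 lower, adding Eif3m. Tissue-weighted limma-voom gave 1 lower, Eif3l in place of Eif3d. Leaving out each library gave 0 to 1 higher and 0 to 2 lower, with 0 of both whichever SDLN library was left out and 0 lower without skin 4; fewer SDLN libraries also left fewer calls over all genes. The median of the 46 genes was -0.56 with limma-voom and -0.57 with tissue weights. For eIF2B the median was -0.08, against -1.07 with limma-voom and -1.07 with tissue weights, and -0.76 to 0.12 with each library left out in turn, the lowest without skin 2. For the eIF4E-binding proteins it was 0.18, against -0.77 and -0.78 with limma-voom without and with weights. For eIF4G it was 0.11, against -0.42 and -0.41 in those fits, -0.41 without skin 3 and 4, and -0.73 (without skin 3) to 0.37 with each library left out. For eIF4A it was -0.09, and 0.24 without skin 3 and 4. The causes were not tested. The difference in the Eif4e3 share, skin minus SDLN, was 29.5 percentage points in CPM and 42.1 per kilobase. Replicate numbers are not said to mark shared animals, and same-numbered libraries did not deviate together (correlations 0.09, -0.003 and -0.05). With the number as a replicate block, 32 genes were higher and 10 lower on the 6 libraries numbered in both tissues and 44 and 12 on all 7, with 0 initiation factor genes in either direction in both fits. A count of 3 stands for 0.204 to 0.276 CPM, and a value under it was seen in Eif2a and Eif4ebp3 in skin 1 and in Eif4ebp1 and Eif5a2 in skin 4. Such values show only that few reads were counted. Eif2a had 1 count in skin 1, against 1058, 1759 and 737 in skin 2 to 4 and 1994, 1777 and 2089 in SDLN 1 to 3. The cause was not tested.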
